A study of Sus scrofa with 41 samples.

Results

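The pigs in this report are the 10 with the highest and the 10 with the lowest immediate-early gene score among 41 male uncastrated pigs of 2 purebred lines, 13 Danbred Duroc and 28 Danbred Landrace, whose psoas major muscle was sequenced as 1 polyA RNA library per pig. The score of a pig is the mean, over FOS, JUNB, EGR1 and DUSP1, of the z-score over pigs of log2(CPM + 1), where CPM is the count of a gene scaled to 1000000 counts on genes in its library. The highest-score pigs (3 Duroc and 7 Landrace) ranged from 0.80 to 1.52 and the lowest-score pigs (2 Duroc and 8 Landrace) from -0.63 to -2.53, while the remaining 21 pigs (8 Duroc and 13 Landrace) lay between. The pigs were fed freely and untreated, muscle was taken directly after slaughter at 140 to 162 days of age in these 20 pigs, and batch stands for slaughter days with their own collection conditions. The study set out to relate expression to the feed conversion ratio (FCR), the feed eaten per unit of weight gained, so the score groups are a grouping of its pigs by a readout and not by a treatment.

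Immediate-early genes are transcribed within minutes of a stimulus, without the need for new protein. Growth factor, stress and calcium signals reach them through kinase cascades and factors such as SRF and CREB that are already in the cell. FOS and JUNB are subunits of the AP-1 transcription factor, EGR1 is a zinc finger transcription factor, and DUSP1 is a phosphatase that switches the MAP kinases off again. In skeletal muscle they are known to respond to contraction, stretch and injury, and blood vessel and immune cells in the tissue express them as well.

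The score rested on 3 genes rather than 4. JUNB (chr2:66214086-66219435, Sscrofa11.1) was listed at 0 in all 41 pigs in the unstranded count column, so its z-score was not defined, and the score was taken as the mean over FOS, EGR1 and DUSP1. The columns counted by strand of the same files did hold read pairs on JUNB, from 93 to 1573 per pig when both strands were summed. STAR leaves uncounted a pair that overlaps more than 1 gene, and whether this set the unstranded 0 was not tested. Pairs in the strand columns may also belong to an overlapping gene. In the summed strand columns, scaled to the same unstranded totals, JUNB stood at 11.5 to 62.9 CPM in the highest-score pigs (median 19.6), 7.00 to 50.3 in the middle pigs (median 11.1) and 3.99 to 8.72 in the lowest-score pigs (median 5.12). JUNB is a gene of the scoring rule, so these levels are a description like those of the other score genes. When JUNB from these columns entered the score, 7 of the 10 highest-score and 10 of the 10 lowest-score pigs stayed in their group.

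The groups were chosen by the FOS, EGR1 and DUSP1 levels of these same libraries, which are therefore given as a description. FOS (chr7:98449508-98451971) stood at 60.8 to 159 CPM in the highest-score pigs (median 75.8) and at 2.20 to 18 in the lowest-score pigs (median 10.9). EGR1 (chr2:140440829-140445302) stood at 29.3 to 83.2 CPM (median 39.3) and at 1.59 to 20.2 (median 6.26). DUSP1 (chr16:51457924-51461095) stood at 126 to 211 CPM (median 161) and at 19.7 to 73.2 (median 45.0). FOS ranged from 54 to 3978 counts between pigs, EGR1 from 39 to 2081 and DUSP1 from 484 to 5475. The middle pigs filled the gap in all 3 genes, with medians of 46.0, 13.1 and 104 CPM for FOS, EGR1 and DUSP1. Duroc pig 1 had the highest score and also the highest FOS and EGR1, and Landrace pig 23 had the lowest score and the lowest value of each of the 3 genes. The borders fell within a continuous order, with 0.80 (Landrace pig 17) just inside and 0.74 (Landrace pig 6) just outside the highest 10, and -0.63 (Landrace pig 8) just inside and -0.54 (Duroc pig 10) just outside the lowest 10.

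**Figure D1:**
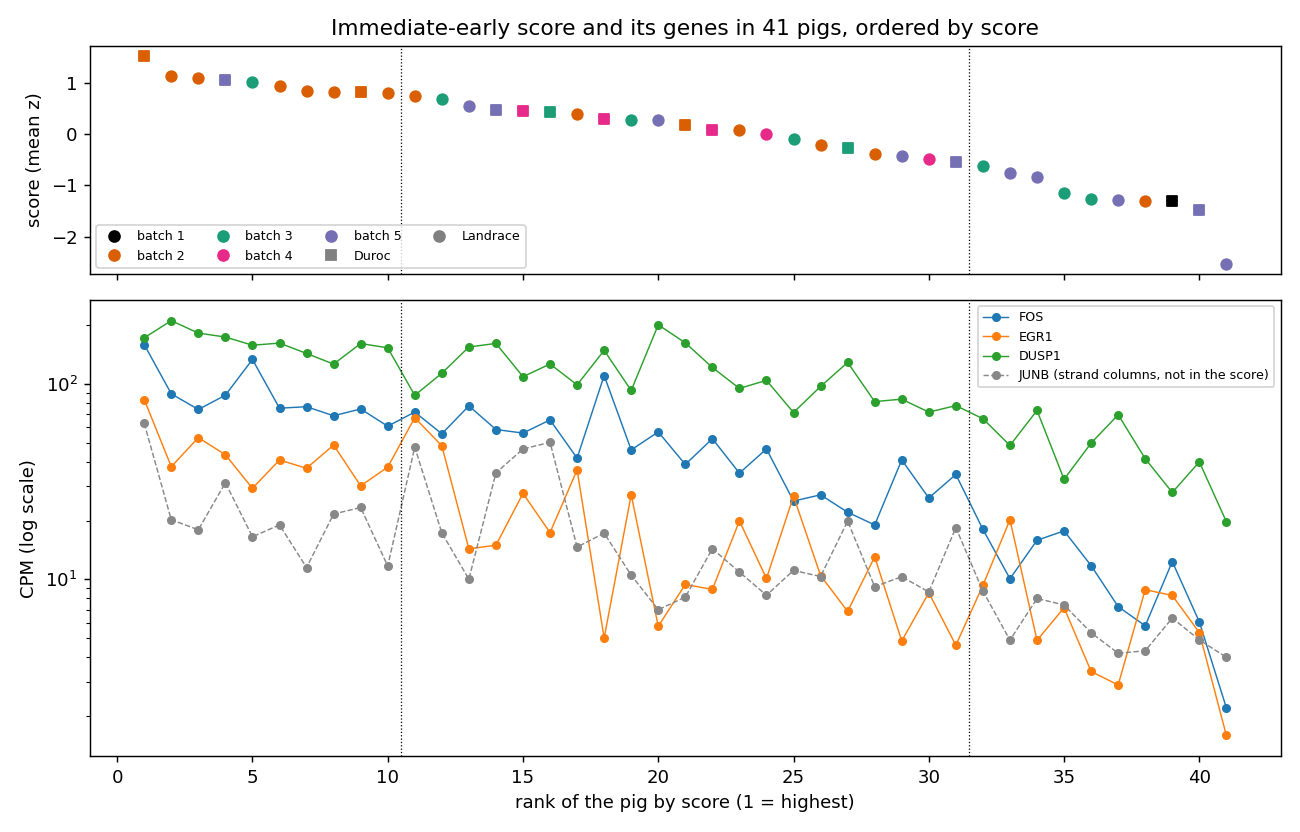
The upper panel plots the score of each of the 41 pigs (mean z-score) against its rank, coloured by slaughter batch with squares for Duroc and circles for Landrace, and the lower panel plots the CPM of FOS, EGR1, DUSP1 and, from the strand columns, JUNB on a log scale. Dotted lines set off the 10 highest and the 10 lowest pigs, of which 8 and 1 came from batch 2.

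Batch was the label in which the groups differed most. Batch 2 held 8 of the 10 highest-score pigs, and batches 3 and 5 held 1 each. Of the lowest-score pigs, 5 came from batch 5, 3 from batch 3, and 1 each from batches 1 and 2 (permutation test of the chi-squared statistic, 100000 resamples, p = 0.00888, Benjamini-Hochberg adjusted p = 0.0622 over 7 measures). The median score was 0.798 in batch 2 (15 pigs), -0.0994 in batch 3 (9 pigs), 0.0928 in batch 4 (5 pigs) and -0.541 in batch 5 (11 pigs), and batch 1 was a single pig at -1.31. RNA integrity (RIN) was 7.95 ± 0.55 in the highest-score and 7.72 ± 0.598 in the lowest-score pigs (SD, n = 10 each, permutation test, two-sided, adjusted p = 0.504). Age was 151.5 ± 4.45 days against 154.8 ± 6.56 days and FCR 2.09 ± 0.0569 against 2.05 ± 0.125, both with the same adjusted p of 0.504 by permutation test. Breed was split 3 to 7 and 2 to 8 (p = 1 by Fisher's exact test). Over all 41 pigs the score was 0.133 ± 0.863 in Duroc (SD, n = 13) and -0.0615 ± 0.921 in Landrace (SD, n = 28), and the breeds did not differ beyond the pigs' own spread (p = 0.53, two-sided permutation test). Within batches 2, 3, 4 and 5 Landrace pigs scored lower by 0.427, 0.247, 0.523 and 0.593, with p between 0.2 and 0.778 by exact two-sided permutation tests. Library depth, as counts on genes, lay between 22188911 and 25954816 over the series and did not separate the groups (adjusted p = 0.504 by permutation test). Fast-fibre contractile genes summed to between 38000 and 78700 CPM in the 20 pigs, the markers of skeletal muscle.

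In the contrast of the score groups alone, 16 of the 11021 genes tested passed an FDR of 0.1 by edgeR's quasi-likelihood test (0.145%), all of them higher in the highest-score pigs, and 1243 (11.3%) had an unadjusted p under 0.05. DESeq2 called 96 genes, 62 higher and 34 lower, with all 16 among them. The DESeq2 FDR values in this report were adjusted with FOS, EGR1 and DUSP1 still among the genes. These differ by the choice of the groups and lower the FDR of other genes, so the DESeq2 counts may be slightly too high. Fold changes here are relative to TMM scaling, which set the median of all genes at -0.01. Scaling by library size alone, as in the CPM values, moved the plain contrast up by a median of 0.207 on the log2 scale and called 35 genes, all higher, with all 16 among them. The 16 genes called under TMM scaling included the immediate-early genes IER2, IER5, KLF2, MYC and GADD45B, the feedback inhibitors ZFP36 and RGS2, the chemokine genes CCL2 and CXCL2 and the heat shock co-chaperone gene DNAJB1. The study corrected its models for RIN, age, breed and batch. When these 4 terms were in the model, none of the 11021 genes passed (0%), with a lowest FDR of 0.337, 432 genes at an unadjusted p under 0.05 (3.92%) and 19 genes by DESeq2 in the same model. Limma with voom called 0 genes there. The 16 genes, chosen in these same 20 pigs, had log2 fold changes of 0.51 to 1.82 in the adjusted model (median 1.15), a description and not a test. With RIN, age and breed but without batch, 36 genes passed (0.327%), 27 of them higher (0.245%) and 9 lower (0.0817%), among them 15 of the 16. Score group and batch therefore cannot be fully told apart in these 20 pigs. The 1 pig of batch 1, Duroc pig 2, had a batch level of its own and so did not inform the adjusted contrast. In each other batch of these pigs, 1 side was a single pig. Batch 2 set 8 highest-score pigs against Landrace pig 14. Batch 3 set Landrace pig 19 against 3 lowest-score pigs, and batch 5 set Duroc pig 5 against 5. All adjusted fold changes and medians below lean on these single pigs.

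**Figure D2:**
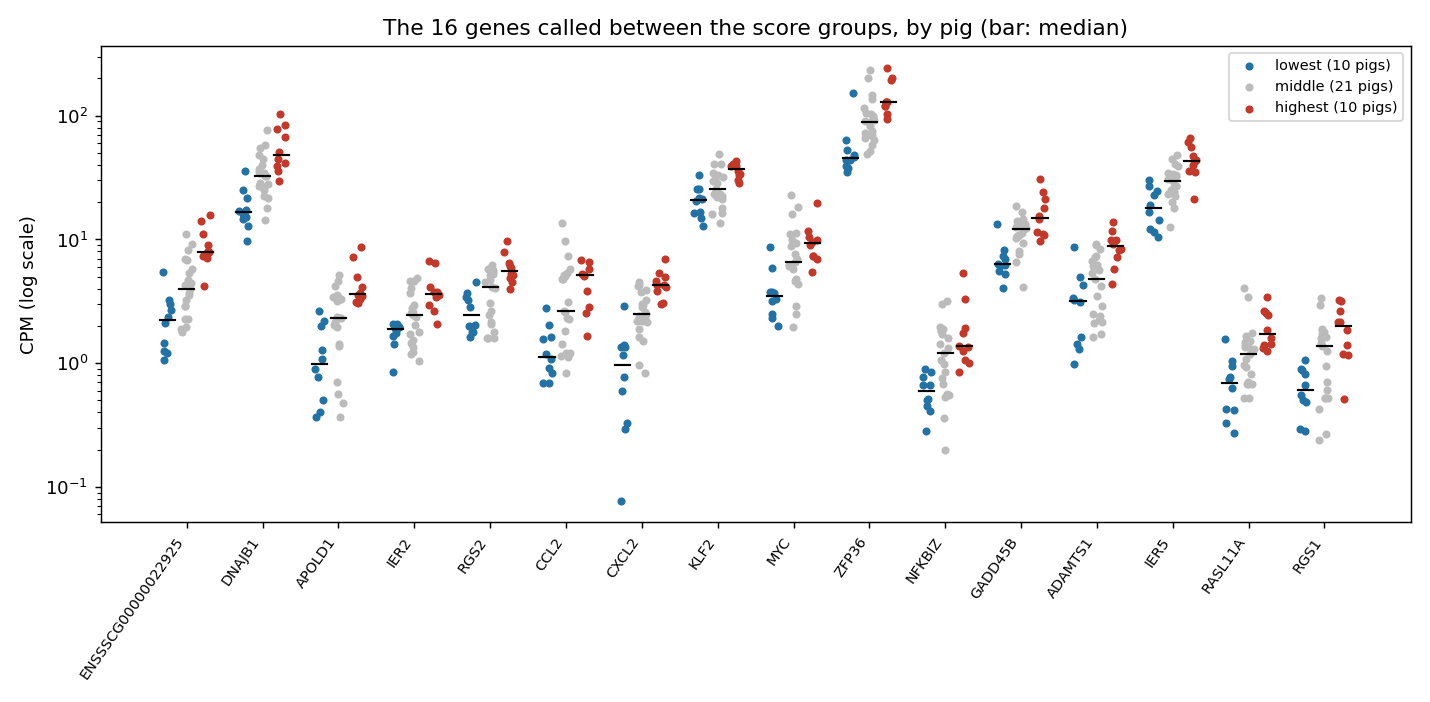
CPM of the 16 genes called between the score groups in each pig, on a log scale, with the lowest-score (10 pigs, blue), middle (21 pigs, grey) and highest-score pigs (10 pigs, red) side by side and a bar at each median. The middle medians lie between the other medians for every gene shown, and only IER2, CXCL2 and APOLD1 have no overlap between the red and blue points.

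Among the transcriptional immediate-early genes, IER2 (chr2:65909638-65912491), a nuclear growth response protein, stood at 2.09 to 6.71 CPM in the highest-score pigs (median 3.64) and at 0.856 to 2.09 in the lowest-score pigs (median 1.89). The groups did not overlap, but the lowest and the highest value at their border both round to 2.09. IER2 rose by a log2 fold change of 0.94 (SE 0.154, edgeR FDR = 0.00991). Of the 11021 genes, 3 separated every highest-score from every lowest-score pig upward (0.0272%) and 0 downward, and the other two were CXCL2 and APOLD1. IER5, a regulator of the heat shock response, stood at 21.2 to 65.6 CPM (median 43.5) against 10.5 to 30.2 (median 17.9) and rose by 1.06 on the log2 scale (SE 0.211, edgeR FDR = 0.0392). MYC, the growth-promoting transcription factor gene (chr4:12455141-12460360), stood at 5.43 to 19.7 CPM (median 9.29) against 2.01 to 8.72 (median 3.52), a rise of 1.13 (SE 0.219, edgeR FDR = 0.0344). KLF2, a transcription factor of blood vessel lining and of lymphocytes, had the smallest change of the 16, with 28.6 to 42.9 CPM against 12.8 to 33.3 and a log2 fold change of 0.60 (SE 0.109, edgeR FDR = 0.0182). GADD45B, a stress-induced activator of p38 signalling, stood at 9.67 to 30.6 CPM (median 15.1) against 4.06 to 13.3 (median 6.28) and rose by 1.07 (SE 0.208, edgeR FDR = 0.0344).

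Of the feedback inhibitors, ZFP36 encodes a protein that marks short-lived messages, including those of cytokines, for decay. It stood at 94.5 to 245 CPM in the highest-score pigs (median 129) and at 35.3 to 154 in the lowest-score pigs (median 45.3), where Landrace pig 14 alone reached 154 and the next pig 63.8. ZFP36 rose by 1.19 on the log2 scale (SE 0.231, edgeR FDR = 0.0344). RGS2, which shortens G protein signals, stood at 3.98 to 9.73 CPM (median 5.56) against 1.63 to 4.56 (median 2.45) and rose by 0.96 (SE 0.165, edgeR FDR = 0.0136). Its relative RGS1, outside the lists and known from lymphocytes, rose by 1.41 (SE 0.301, edgeR FDR = 0.0772), on 0.510 to 3.26 CPM against 0.285 to 1.06.

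The other called genes fell outside the immediate-early lists. DNAJB1 (chr2:64761672-64764482), a co-chaperone that works with HSP70, had 29.7 to 104 CPM in the highest-score pigs (median 48.1) and 9.71 to 35.7 in the lowest-score pigs (median 16.6). It had a log2 fold change of 1.43 (SE 0.197, edgeR FDR = 0.00139), and the 2 groups overlapped only at their edges. CXCL2 (chr8:70157253-70159145), a neutrophil-attracting chemokine, stood at 3.00 to 6.93 CPM (median 4.28) against 0.0774 to 2.91 (median 0.970), a rise of 1.97 (SE 0.348, edgeR FDR = 0.0159). CCL2, which attracts monocytes, stood at 1.66 to 6.85 CPM (median 5.14) against 0.692 to 2.80 (median 1.13) and rose by 1.58 (SE 0.275, edgeR FDR = 0.0153). APOLD1 (chr5:59667088-59672021), an endothelial early response gene, stood at 3.06 to 8.77 CPM against 0.367 to 2.62 without overlap, and rose by 1.73 (SE 0.276, edgeR FDR = 0.00845). NFKBIZ, an inducible regulator of NF-kB, rose by 1.44, ADAMTS1, an early-induced matrix protease, by 1.26 and RASL11A, a small GTPase, by 1.29 on the log2 scale. The smallest FDR of all, 0.00034, belonged to ENSSSCG00000022925, a gene without a symbol in the name table, which stood at 4.23 to 15.9 CPM against 1.06 to 5.49.

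Several family members that usually accompany FOS did not pass by edgeR but passed by DESeq2 in 1 of the 2 contrasts. JUN, the classic AP-1 partner of FOS, stood at 295 to 493 CPM in the highest-score pigs (median 367) and at 108 to 308 in the lowest-score pigs (median 196). Its log2 fold change was 0.73 (SE 0.17, edgeR FDR = 0.143, DESeq2 FDR = 0.0153), and JUN passed in the model with RIN, age and breed without batch (edgeR FDR = 0.0721). ATF3, a stress-induced partner of AP-1, stood at 23.7 to 126 CPM (median 56.6) against 3.26 to 221 (median 11.4), and the 221 came from Duroc pig 2. Its log2 fold change was 0.59 (SE 0.635, edgeR FDR = 0.71) in the plain contrast and 2.44 (SE 0.576, edgeR unadjusted p = 0.000593, DESeq2 FDR = 0.0476) in the adjusted one, which that pig did not inform. NR4A1, an orphan nuclear receptor induced by contraction, stood at 111 to 351 CPM (median 198) against 51.0 to 211 (median 90.0), with a log2 fold change of 0.77 (SE 0.241, edgeR FDR = 0.366), and it passed by DESeq2 in the adjusted contrast (FDR = 0.0191). CCN1, a secreted matricellular protein, was at 21.9 to 118 CPM (median 40.3) against 3.99 to 29.6 (median 17.1), with 1.32 (SE 0.318, edgeR FDR = 0.174, DESeq2 FDR = 0.00971). SOCS3, an inhibitor of cytokine signalling, was at 2.16 to 23.4 CPM (median 5.14) against 0.938 to 3.79 (median 1.58), with 1.57 (SE 0.351, edgeR FDR = 0.122, DESeq2 FDR = 0.00264). NR4A2 had a log2 fold change of -0.05 (edgeR FDR = 0.912), and SRF, the factor that acts upstream of many of these genes, -0.22 (edgeR FDR = 0.531).

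Of the 76 genes on the 4 immediate-early lists (AP-1, EGR and NR4A, other factors, feedback inhibitors), 69 were in the files by symbol and 62 had enough counts to be tested. Of these, 7 rose, 0 fell and 55 did not pass. Their median log2 fold change was 0.43 in the plain contrast, where 53 of 62 were positive against 5215 of all 11021 genes (60 and 9365 without TMM scaling), and 28 had an unadjusted p under 0.05 upward and 0 downward (639 and 604 of all genes). In the adjusted model the median was 0.36, with 17 genes at an unadjusted p under 0.05 upward and 0 downward, beside -0.00386 and 233 and 199 of all 11021 genes. The calls came from the other immediate-early factors (5 of 33 tested, median 0.48) and the feedback inhibitors (2 of 21, median 0.33), and by edgeR none from the AP-1 list (5 tested, median 0.43) or the EGR and NR4A list (3 tested, median 0.08). After adjustment the median was 0.47 for the AP-1 list and 0.93 for the EGR and NR4A list, which rests on 3 genes. DESeq2 called 15 of the 62 higher in the plain contrast, where it called 0.563% of all genes higher and 0.309% lower, and 7 in the adjusted one (0.136% and 0.0363%), with 0 lower in either, JUN of the AP-1 list among the 15 and ATF3 and NR4A1 among the 7. CSRNP1 among the 15 (DESeq2 FDR = 0.0985) and KLF2 among the 7 (DESeq2 FDR = 0.0983) lay just under the threshold, in an adjustment that still held the score genes. In the files but with too few counts to be tested were FOSB, EGR2, EGR3, ARC, ID1, DUSP2 and DUSP5, while JUND, BATF, MAFK, EGR4, BTG2, RHOB and SOCS2 were not matched by symbol. FOSB, the close relative of FOS, stood at 0.712 to 3.74 CPM in the highest-score pigs (median 2.24) and at 0 to 0.779 in the lowest-score pigs (median 0.284). As for JUNB, the columns differed for ID1, with 9 unstranded against 7169 summed strand counts over all pigs, and less so for FOSL1, NAB2, CEBPD and DUSP6.

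**Figure D3:**
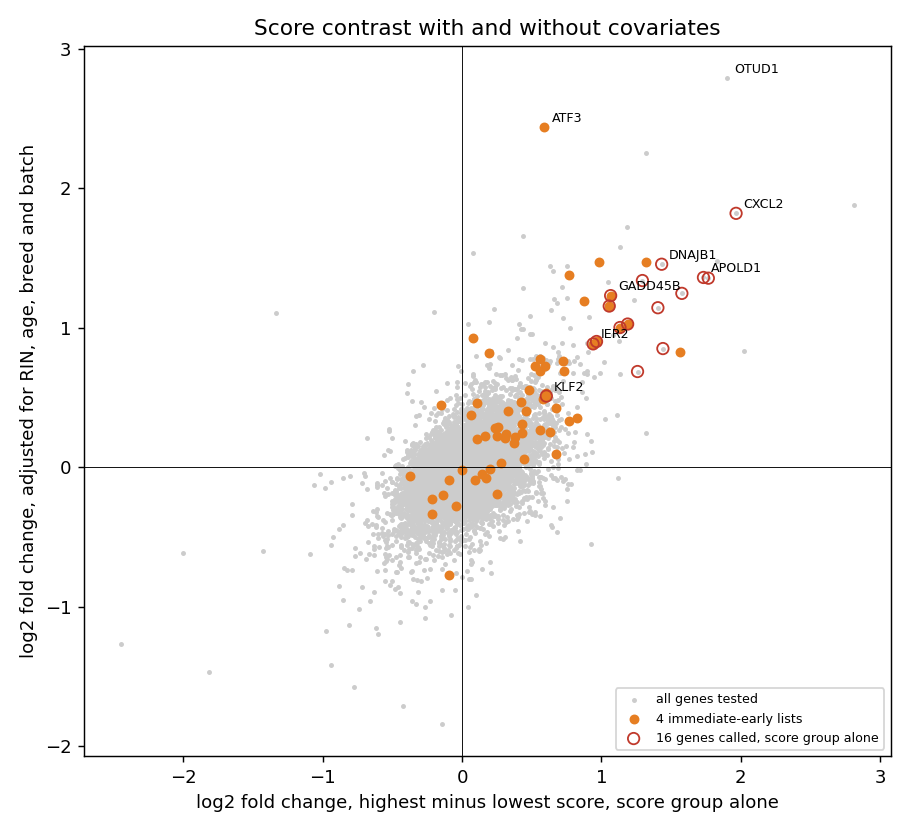
Each point is 1 gene, with its log2 fold change of highest against lowest-score pigs in the contrast of the score groups alone on the horizontal axis and after adjustment for RIN, age, breed and batch on the vertical axis. Both axes use the same 20 pigs. The genes of the 4 immediate-early lists are orange and the 16 called genes are ringed, and all 16 lie to the upper right of both zero lines.

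The genes that carry signals to the immediate-early genes had a median near that of all genes in the plain contrast, and lists were not tested as sets. Over all genes the plain contrast called 0.145% and had a median of -0.01. Of 24 growth factor, RAS, RAF, MAP kinase, ELK and CREB genes tested, 0 passed by edgeR or DESeq2. At an unadjusted edgeR p under 0.05, 3 of them were higher and 0 lower, beside 639 and 604 of all 11021 genes. The median log2 fold change of the 24 genes was 0.02, or 0.22 without TMM scaling against 0.19 over all genes. CREB1, a calcium and cAMP responsive factor, had 0.24 (edgeR FDR = 0.406), and 0.27 after adjustment. HBEGF, a ligand of the EGF receptor, had -0.03 (edgeR FDR = 0.98), and 0.61 after adjustment. MAPK3, which encodes ERK1, had -0.21 (edgeR FDR = 0.493), which was 0.01 without TMM scaling and -0.11 after adjustment. Of 12 inflammatory and acute response genes, CCL2 and CXCL2 rose and 10 did not pass by edgeR, with a median of 0.49 that became 0.11 after adjustment. IL6, CXCL8, PTGS2, CCL4 and LIF had too few counts to be tested. In the heat shock list, DNAJB1 rose and 21 of 22 genes did not pass by edgeR, with a median of 0.14, and in the adjusted model 6 had an unadjusted p under 0.05 upward and 0 downward, beside 233 and 199 of all 11021 genes. HSPA1A, HSPA1B, HSPA2, HSPB2 and HSPB7 were not matched by symbol. HSP70.2, a heat shock gene outside the list, had 1.18 in the plain contrast (edgeR FDR = 0.336, DESeq2 FDR = 0.0772). It passed in the model with RIN, age and breed without batch (1.47, edgeR FDR = 0.0896). HSPB1, a small heat shock protein, stood at 176 to 1600 CPM against 126 to 539 (log2 fold change 0.55, edgeR FDR = 0.605). ADAMTS1 was the 1 gene called by edgeR among 19 contraction and exercise genes, whose median was 0.12, and 0.16 after adjustment. DESeq2 also called CSRP3, a muscle LIM protein gene on this and the slow-fibre list, lower (log2 fold change -1.89, FDR = 0.0364, against -0.51 and 0.781 by edgeR). PPARGC1A, the mitochondrial coactivator that rises with exercise, had -0.30 (edgeR FDR = 0.741) in the plain contrast and 0.47 after adjustment, so its sign depended on the model. By edgeR none of the 16 glucocorticoid, 15 hypoxia, 14 unfolded protein, 18 clock and 13 atrophy genes passed. Of the glucocorticoid genes 15 were positive, with a median of 0.23 that was 0.06 after adjustment, and the medians of the other 4 lists lay between 0.01 and 0.10. Beyond these, DESeq2 called THBS1, a matrix glycoprotein gene of the inflammatory list (log2 fold change 1.37, FDR = 0.0153, against 0.23 and 0.89 by edgeR), ADM, a vasodilator peptide gene of the hypoxia list (FDR = 0.00856) and KLF9 and ERRFI1 of the glucocorticoid list (FDR = 0.0776 and 0.0772) higher in the plain contrast.

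By edgeR no marker list of another cell type had a called gene in the plain contrast, but several medians were off 0, and DESeq2 called the adipocyte markers PPARG (FDR = 0.0346) and ADIPOQ (FDR = 0.0702) higher. All 14 endothelial markers tested were positive (median 0.31), and the list summed to 160 to 366 CPM in the highest-score pigs (median 259) and 95 to 349 in the lowest-score pigs (median 154). VWF, SOX17 and CLDN5 were not matched by symbol. Of 14 leukocyte markers 13 were positive (median 0.36), with sums of 47.9 to 139 CPM (median 69.8) against 24.9 to 98.6 (median 43.4). After adjustment these medians were 0.04 and 0.21. With RIN, age and breed but without batch they were 0.495 (14 of 14 positive) and 0.372 (13 of 14). In that model 11 endothelial and 5 leukocyte markers were higher at an unadjusted edgeR p under 0.05, beside 801 of all 11021 genes. Of 6 adipocyte markers 5 were positive in the plain contrast (median 0.81, adjusted 0.44). ADIPOQ, the fat cell hormone gene, was among them, at 0.744 to 72.8 CPM against 0.180 to 14.5 (log2 fold change 2.81, SE 0.835, edgeR FDR = 0.336). Satellite cell markers were positive in 5 of 5 (median 0.29, adjusted -0.16), smooth muscle and pericyte markers in 8 of 11 (median 0.21, adjusted -0.05) and fibroblast markers in 7 of 10 (median 0.24, adjusted -0.12). Both erythroid markers tested were negative (median -0.94, adjusted -0.68), with HBB at -1.09 (edgeR FDR = 0.438), and so were both nerve and Schwann cell markers (median -0.32, adjusted -0.41). APOLD1, KLF2, CCL2, CXCL2 and RGS1 are genes that vessel or immune cells can express, and the part of these cells in their change was not tested. In bulk muscle, more cells of a type and more RNA of a gene per cell cannot be told apart. Of 9 slow-fibre genes, such as the troponin gene TNNI1 and the myosin light chain gene MYL2, 0 were positive (median -0.44, adjusted -0.46, and -0.28 with 1 positive without TMM scaling), and of 10 fast-fibre genes 2 were (median -0.21, adjusted -0.03, and 0.00 without TMM scaling), none called by edgeR, while DESeq2 called CSRP3 of the slow-fibre list lower. With RIN, age and breed but without batch the slow-fibre median was -0.13. Against the score within batches 2, 3 and 5 it was 0.0452, -0.224 and -0.331 per score unit, with 6 of 9 genes positive in batch 2. In the plain contrast the 13 mitochondrially encoded genes had a median of -0.44 and the 46 cytosolic ribosomal protein genes of -0.24, with 0 positive in either and none called by edgeR. Without TMM scaling these medians were -0.19 and -0.03, with 16 of 46 ribosomal genes positive, against 0.19 over all genes. After adjustment the TMM-scaled medians were -0.13 and 0.00 (24 of 46 ribosomal genes positive).

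**Figure D4:**
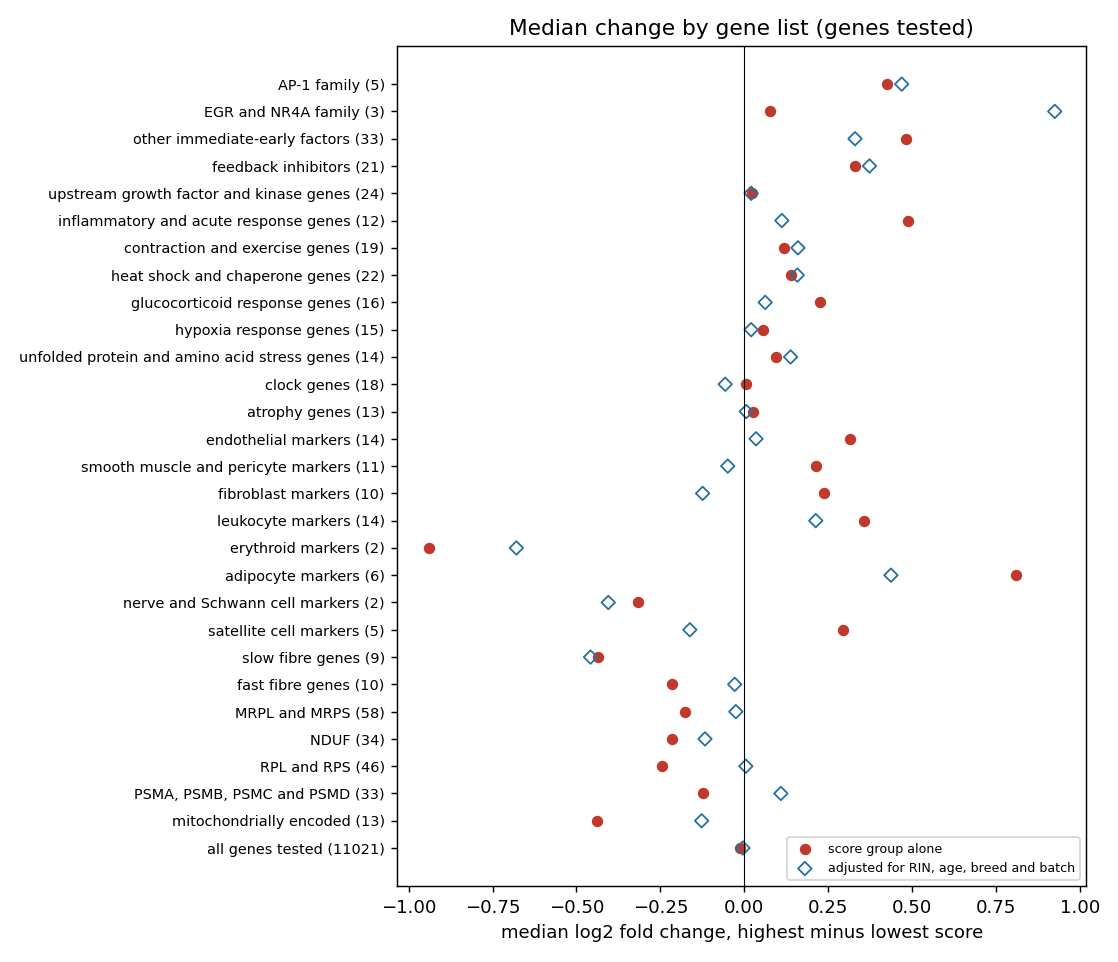
Median log2 fold change of each gene list between the score groups under TMM scaling, with the number of genes tested in parentheses. Red circles are the score groups alone and blue diamonds the model with RIN, age, breed and batch. The medians of the immediate-early lists lie to the right of 0 in both. So do those of the adipocyte, leukocyte, inflammatory, heat shock, contraction, glucocorticoid and unfolded protein lists. Those of the endothelial, hypoxia, atrophy and upstream growth factor and kinase lists do too, some of them close to 0. The endothelial, ribosomal and fast-fibre medians move towards 0 with adjustment. The slow-fibre median is -0.44 and -0.46 in these 2 fits, and was -0.13 with RIN, age and breed without batch. Without TMM scaling the plain medians of the ribosomal and fast-fibre genes were already -0.03 and 0.00.

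The 21 middle pigs took no part in the contrast. With the score as a number and RIN, age, breed and batch in the model, 0 of 10925 genes passed by edgeR (0%), 474 had an unadjusted p under 0.05 (4.34%), and DESeq2 called 1. Of the 16 genes called between the extremes, 14 had a positive slope and 7 an unadjusted p under 0.05, with a median of 0.51 log2 units per score unit, against -0.0036 and 49.3% positive over all genes. DNAJB1 had a slope of 0.69 (unadjusted p = 0.00273), IER2 of 0.87 (p = 0.00634), MYC of 1.34 (p = 0.00196) and CCL2 of 1.61 (p = 0.0073), all by edgeR. RASL11A and RGS1 had negative slopes, of -0.53 (p = 0.202) and -0.15 (p = 0.79). Of the 62 immediate-early list genes tested there, 51 were positive, with a median slope of 0.31. In the same fit all 10 fibroblast markers tested were positive, with a median slope of 1.00 and 4 at an unadjusted p under 0.05. Positive slopes were found for 4 of 15 endothelial (median -0.196), 1 of 5 adipocyte (-0.392) and 10 of 14 leukocyte markers (0.195). Of 9 slow-fibre and 13 mitochondrially encoded genes, 0 were positive (medians -0.595 and -0.514). The part of these cells and fibres in the other slopes was not tested. SOCS3 and ATF3, which edgeR had not called between the extremes, had slopes of 2.93 (edgeR, unadjusted p = 0.00255) and 2.44 (p = 0.00411).

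Within slaughter batches the same genes were followed against the score with RIN in the model. These fits share pigs with the contrast in which the 16 were chosen, so their counts are a description. In batch 2 (15 pigs), 15 of the 16 genes were positive (median 0.54 per score unit) and 13 had an unadjusted p under 0.05, against 6.06% of all genes. In batch 3 (9 pigs), 13 of 13 tested were positive (median 0.51) and 10 had an unadjusted p under 0.05, against 3.30%. In batch 5 (11 pigs), 12 of 12 tested were positive (median 0.39) and 6 had an unadjusted p under 0.05, against 2.89%. Among markers of other cell types in the same fits, all 14 endothelial markers in batch 2 were positive (median 0.23, 6 at an unadjusted edgeR p under 0.05), 5 of 6 adipocyte markers were positive (median 0.59, 3 upward at that p, ADIPOQ at 2.44 per score unit), and 0 of 14 leukocyte markers were positive (median -0.21, 4 downward at that p). In batch 3, 10 of 10 fibroblast markers (median 0.61, 2 at that p) and 13 of 14 leukocyte markers (median 0.25) were positive, and in batch 5, 9 of 10 (median 0.26) and 11 of 11 (median 0.21). The endothelial markers were positive for 5 of 14 in batch 3 and 9 of 14 in batch 5. The adipocyte markers were positive for 3 of 5 in batch 3 (median 0.125) and 1 of 4 in batch 5 (median -0.187). Of the fibroblast markers, 2 of 10 were positive in batch 2 (median -0.00781). The part of these cells in the slopes of the 16 genes was not tested. Across all genes, 2, 0 and 0 passed an edgeR FDR of 0.1 in these 3 batches, and batches 1 and 4 held too few pigs. Of the 16 genes, RGS1 was the 1 with a slope at or below 0, at -0.01 in batch 2.

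**Figure D5:**
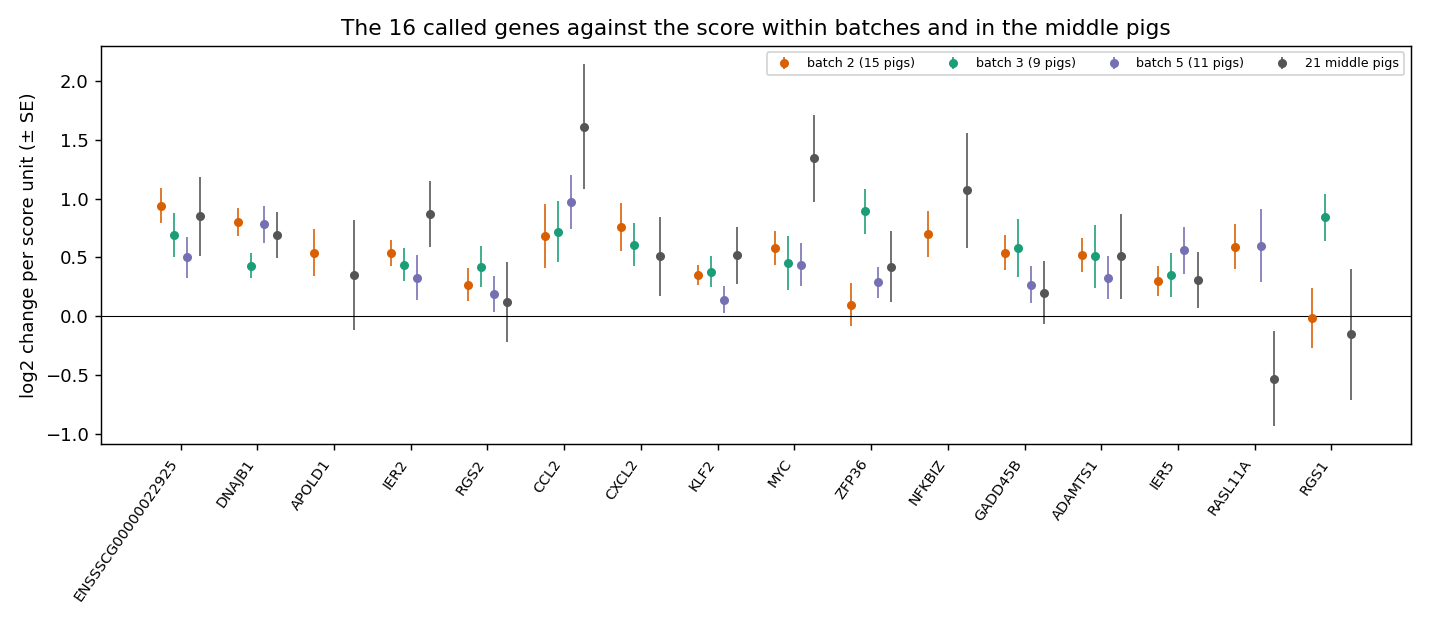
Log2 change per score unit (points) with its standard error (lines) for the 16 called genes, within batches 2, 3 and 5 and in the 21 middle pigs. All points lie above 0 except RGS1 in batch 2 and RASL11A and RGS1 in the middle pigs, and a gene with too few counts in a fit has no point there.

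Over all 41 pigs, with the score as a number and the same 4 covariates, 10 of 11143 genes rose with the score (0.0897%) and 0 fell, with 667 (5.99%) at an unadjusted p under 0.05. Of these, 5 were among the 16, and CXCL2, DNAJB1, IER5 and GADD45B were the ones with a symbol. CSRNP1, OTUD1, HSP70.2 and 2 genes without a symbol in the name table, ENSSSCG00000028322 (0.97 per score unit, edgeR FDR = 0.000254) and ENSSSCG00000040751 (0.49, edgeR FDR = 0.000833), came in addition, and these were named after their values were seen. ENSSSCG00000040751 had 11 to 104 counts per pig, and its plain fold was 0.68 unstranded and 0.10 in the summed strand columns. CSRNP1, an immediate-early nuclear protein, rose by 0.59 per score unit (SE 0.126, edgeR FDR = 0.0551). OTUD1, a deubiquitinase, rose by 1.13 (SE 0.163, edgeR FDR = 0.000223), and stood at 68.3 to 346 CPM in the highest-score pigs (median 134) and 3.55 to 93.1 in the lowest-score pigs (median 30.8). HSP70.2, the inducible heat shock protein for which DNAJB1 is a partner, rose by 0.72 (SE 0.13, edgeR FDR = 0.00395), and stood at 43.1 to 248 CPM (median 98.3) against 17.0 to 78.1 (median 44.7). Near-identical HSP70 copies share reads, so the count of HSP70.2 is uncertain. With the score alone and no covariates, 576 of the 11143 genes passed by edgeR (5.17%), 228 higher (2.05%) and 348 lower (3.12%). They held 18 of 62 immediate-early list genes, all higher, and, among the lower, 7 of the 13 mitochondrially encoded genes, 5 of 34 NDUF genes of respiratory complex I and 4 of 46 cytosolic ribosomal protein genes. Of the markers of other cell types, 3 of 6 adipocyte genes, ADIPOQ (1.40 per score unit, edgeR FDR = 0.00601), PPARG (0.41, edgeR FDR = 0.0619) and SCD (0.54, edgeR FDR = 0.0768), and the endothelial FLT1 (0.34, edgeR FDR = 0.0765) rose with the score, and the haemoglobin gene HBB fell (-0.52, edgeR FDR = 0.0955). The part of these cells in the 576 calls was not tested. A term for a different slope in Landrace and Duroc called 0 of the 11143 genes by edgeR, with 346 at an unadjusted p under 0.05.

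By edgeR no gene fell in the plain or the fully adjusted contrast, where 604 and 199 genes were lower at an unadjusted p under 0.05, while DESeq2 called 34 and 4 genes lower. SH3GLB1, an autophagy and membrane-shaping protein, had the lowest p of the genes that were lower in the plain contrast, at 108 to 150 CPM in the highest-score pigs (median 138) and 129 to 180 in the lowest-score pigs (median 142), with a log2 fold change of -0.35 (SE 0.0795, edgeR FDR = 0.126, DESeq2 FDR = 0.0011) that was -0.13 (edgeR FDR = 0.381) without TMM scaling. In the model without batch SH3GLB1 was among the 9 lower genes (-0.30, edgeR FDR = 0.0795), as were CCDC107 (-0.53, edgeR FDR = 0.0788) and SPSB2, an adaptor of a ubiquitin ligase (-1.08, edgeR FDR = 0.0805). The fold of SPSB2 depended on the count column, at -0.98 unstranded and -0.20 (edgeR FDR = 0.527) in the summed strand columns of the plain contrast. In the fully adjusted contrast the lowest p downward was that of ATP5F1D, a subunit of mitochondrial ATP synthase, with -0.41 (SE 0.103, edgeR unadjusted p = 0.00101), which passed by DESeq2 alone (FDR = 0.00744).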

How the data were processed

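Per the study's methods and the submitters' processing notes, read pairs were trimmed with Trimmomatic 0.39, aligned to Sscrofa11.1 with STAR 2.7.1a and counted on Ensembl 96 genes. The deposited values are raw counts per gene, unnormalized and unfiltered, and the authors corrected for RIN, age, breed and batch. The unstranded column was used, and the 2 strand columns were summed for JUNB and as an alternative. Pairs on overlapping genes, antisense genes and near-identical copies are uncertain.

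The members and gene lists were chosen with earlier results of these data known. Genes were tested with edgeR 4.0.16 (quasi-likelihood, legacy form, TMM, R 4.3.3) after filterByExpr without group (minimum count 10, minimum total 15), with Benjamini-Hochberg FDR under 0.1, the study's threshold. No test of a score gene is reported, and JUNB entered the alternative on the summed strand columns. DESeq2 FDR values were adjusted with FOS, EGR1 and DUSP1 among the genes, and edgeR and limma values without them. DESeq2 1.42.0 and limma 3.58.1 were alternatives, and the edgeR step was tested on simulated data. Pig measures used 100000 permutations (SciPy 1.17.1). Named genes were all list members called, up to 4 members of other lists with the smallest adjusted-model p, the 10 smallest p each way in that model, 5 each way in the plain contrast and 5 in the middle pigs. Symbols matched 14857 of 25880 gene identifiers, and coordinates are RefSeq's on Sscrofa11.1. p-values measure the spread between pigs, 1 library each.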

Additional observations from a re-analysis of the deposited data

Results flagged for a closer look

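In groups of 10 pigs, a single value stood far from the others (Dixon's test) in 7 of 48 groups checked, where chance flags about 1 in 20. Among the lowest-score pigs, IER2 was low in Landrace pig 27 (0.856 CPM) and ZFP36 high in Landrace pig 14 (154 CPM). Landrace pig 1 stood apart among the highest-score pigs with a RIN of 6.5, 23876645 counts on genes and 75.62% of read pairs counted on a gene. Landrace pig 27 stood apart among the lowest-score pigs with 22188911 counts on genes and 69.86% of read pairs counted. Without Landrace pig 1 and without Landrace pig 27 in turn, 21 genes (14 higher, 7 lower) and 19 genes (17 higher, 2 lower) passed in the plain contrast, which called none lower with all pigs.

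JUNB had at least 93 counts per pig in the strand columns, which the score and the main contrasts did not use and which entered only alternatives, and 107 genes at 0 in every pig in the unstranded column had on average 20 or more counts per pig by strand.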

How the results depend on the processing

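The count of genes past the FDR threshold in the fully adjusted contrast was 0. It was 16 with the score group alone, 19 with RIN, 31 with RIN and breed, and 36 with RIN, age and breed without batch, the last chosen after seeing the data. It was 19 with DESeq2 (15 higher, 4 lower), 10 with the score as a number over all 41 pigs, 1 with 13 against 13 pigs, 16 with 7 against 7 pigs with RIN and breed, 25 with 7 against 7 Landrace pigs with RIN (18 higher, 7 lower), 1 with the score on TMM-scaled CPM, 5 with the score without EGR1, and 2 within batch 2. Leaving out 1 pig gave 0 to 1. The plain count of 16 was 96 with DESeq2 (62 higher, 34 lower), 576 with the score as a number over 41 pigs (228 higher, 348 lower), 35 with library size only (all higher, chosen after seeing the data) and 17 with the summed strand columns, each holding all 16. The added call in the strand columns was JUNB, a gene of the scoring rule, and is no result. Leaving out 1 pig gave 11 to 54, with 54 (45 higher, 9 lower) without Landrace pig 8 and 28 (21 higher, 7 lower) without Landrace pig 14. RGS1 was called in 8 and RASL11A in 14 of these 20 fits, and CXCL2 had enough counts to be tested in 3, where it was called. DESeq2 called 1 gene in the middle pigs. The slope of RGS1 was near 0 within batch 2 (-0.01, SE 0.255), and RASL11A and RGS1 had slopes of -0.53 and -0.15 in the middle pigs. With library size only, the median of all genes in the adjusted contrast shifted from -0.00386 to 0.0883. No paired analysis was possible because the labels give no replicate numbers.

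Depth limits the low genes most: FOSB, EGR3, ARC and DUSP5 were below the count minimum, and CXCL2, RGS1 and NFKBIZ rest on few counts per pig. The pigs were grouped by a score from the same libraries, the highest group is mostly batch 2, and no tissue from a second time point or muscle was analysed here.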
